A study of Mus musculus with 6 samples.

Results

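Hemoglobin, the oxygen carrier of red blood cells, is a tetramer of 2 alpha and 2 beta globin chains that each hold a heme. The 5 genes described here are the adult mouse alpha globin genes *Hba-a1* and *Hba-a2*, the adult beta globin genes *Hbb-bs* and *Hbb-bt*, and *Alas2*, which encodes the erythroid form of 5-aminolevulinate synthase, the first enzyme of heme synthesis. They were chosen by symbol in the authors' result table and joined by gene identifier to the gene counts, and all 5 were found among the 56923 genes listed. Reticulocytes, the youngest red cells, still hold globin mRNA in the circulation, so the level of these transcripts in the ventricle was taken as a readout of blood left in the tissue.

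The mRNA-Seq compared left ventricles (LVs) of 3 wild-type (WT) mice with LVs of 3 mice that carry 1 *Lztr1* R409C allele (*Lztr1* R409C/+, labelled Mut and called mutant from here on). All were 12 weeks old and each gave 1 library. The mutation was knocked in with CRISPR/Cas9 and the line was backcrossed to C57BL/6J, and the study states that it used male mice and perfused them with ice-cold phosphate-buffered saline before the LVs were taken. The allele is a germline point mutation, so blood-forming cells of the mutant mice carry it too. LZTR1 is a substrate adaptor of a ubiquitin ligase that marks RAS proteins for degradation.

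Total counts ranged from 66130887 to 72641124 per mouse. Levels are given as CPM, the count of a gene relative to a library size that TMM scaling had set to a common scale. A floor of 3 counts stood at 0.0317 to 0.0541 CPM and allows for counting error alone. *Lztr1* itself was at 23.5 ± 1.11 CPM (SD, n = 3) in WT and 25.7 ± 2.03 CPM (SD, n = 3) in mutant mice, and a point mutation is not visible in such counts. The cardiomyocyte list (*Myh6*, *Tnnt2* and 8 others) was abundant in every mouse, with summed levels of 33440 to 48930 CPM, and of the 5 atrial genes *Myl7*, *Sln* and *Bmp10* had at most 19 counts, *Myl4* 23 to 54 and *Nppa*, which ventricles can also express, 2488 to 7618. The share of counts from mitochondrially encoded genes set 2 libraries apart, WT replicate 3 with 13.8% (exact 95% interval 13.84% to 13.85%) and mutant replicate 1 with 45.4% (exact 95% interval 45.42% to 45.44%), against 29.7% to 37.3% in the other 4.

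The alpha genes lie on chromosome 11 of GRCm39, *Hba-a1* (ENSMUSG00000069919.8) from 32233186 to 32234504 and *Hba-a2* (ENSMUSG00000069917.8) from 32246168 to 32247320, 11664 bp further on the plus strand. The beta genes lie on the minus strand of chromosome 7, *Hbb-bt* (ENSMUSG00000073940.4) from 103461727 to 103465047 and *Hbb-bs* (ENSMUSG00000052305.7) from 103475730 to 103482989. *Alas2* (ENSMUSG00000025270.14) lies on the X chromosome from 149330371 to 149353634. Each globin gene has 3 exons in its canonical GENCODE transcript, and *Alas2* has 11. The coding sequences of the 2 alpha genes differ at 1 of 426 bases and those of the 2 beta genes at 1 of 441 bases, so reads from within a pair could be split between its members by the counting. Over the whole transcripts, the alpha pair matched at 99.8% and the beta pair at 92.1% of aligned bases. The sums of each pair do not depend on this split and are given beside the single genes.

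The promoters of the members are shown because the 5 genes varied together across the mice, as described below. Each line holds the 250 bases before the RefSeq transcription start (RefSeq's table for GRCm38.p6, placed on GRCm39 by exact match), with capitals for 4 motifs: the GATA motif (AGATAA or TGATAA, both strands), the CACCC box (CCACCC or CACACCC, both strands), the CCAAT box (CCAAT, both strands) and the TATA box (TATAAA or TATAAG, sense strand). The windows were chr11:32233422-32233671 (plus strand) for *Hba-a1*, chr7:103477136-103477385 (minus strand) for *Hbb-bs*, chr7:103463131-103463380 (minus strand) for *Hbb-bt* and chrX:149330163-149330412 (plus strand) for *Alas2*. The *Hba-a1* window matched 2 places on chromosome 11, and the place given is the one within the GENCODE span of *Hba-a1*. The GENCODE span of each globin gene reaches beyond its RefSeq start and holds the whole window, and that of *Alas2* begins within its window.
Hba-a1: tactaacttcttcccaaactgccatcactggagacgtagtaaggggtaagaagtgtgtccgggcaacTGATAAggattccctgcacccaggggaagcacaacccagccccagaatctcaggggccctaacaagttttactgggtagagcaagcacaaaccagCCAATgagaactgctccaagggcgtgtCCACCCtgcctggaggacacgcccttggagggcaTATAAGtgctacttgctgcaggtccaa
Hbb-bs: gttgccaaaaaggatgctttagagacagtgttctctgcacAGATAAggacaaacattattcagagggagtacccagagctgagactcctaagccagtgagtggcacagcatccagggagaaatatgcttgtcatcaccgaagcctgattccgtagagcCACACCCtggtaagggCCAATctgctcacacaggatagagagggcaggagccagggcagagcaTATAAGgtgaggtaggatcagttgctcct
Hbb-bt: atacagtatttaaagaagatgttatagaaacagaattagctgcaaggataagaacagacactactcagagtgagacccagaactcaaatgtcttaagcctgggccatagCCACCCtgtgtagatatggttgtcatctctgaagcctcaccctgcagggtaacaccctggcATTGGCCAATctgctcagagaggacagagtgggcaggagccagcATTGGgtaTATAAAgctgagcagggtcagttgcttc
Alas2: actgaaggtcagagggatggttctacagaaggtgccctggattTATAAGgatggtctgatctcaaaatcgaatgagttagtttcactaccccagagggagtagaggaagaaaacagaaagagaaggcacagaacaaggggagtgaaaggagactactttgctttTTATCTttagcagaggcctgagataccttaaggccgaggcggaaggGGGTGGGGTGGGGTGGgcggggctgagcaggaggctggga

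The *Hba-a2* window overlaps that of *Hba-a1* without a mismatch over 247 bases and is not repeated. Both *Hba-a1* and *Hbb-bs* held all 4 motifs, with GATA farthest out (183 and 210 bases before the start) and TATA nearest (27 and 29 bases). CCAAT (88 bases) lay outside CACCC (61 bases) in *Hba-a1*, and CACCC (92 bases) lay outside CCAAT (76 bases) in *Hbb-bs*. GATA1 and KLF1, erythroid transcription factors, are known to bind GATA and CACCC motifs. The GATA motif was present in 4 of the 5 windows and in 16.6% of 32851 RefSeq promoters of the same length, and these letters were not in the *Hbb-bt* window. The CACCC box was present in 5 of 5 windows and in 32.7% of promoters, where the 3 *Alas2* matches overlap on the opposite strand. The CCAAT box was present in 4 of 5 windows and in 33.8% of promoters, where 2 of the 3 *Hbb-bt* matches are adjacent on opposite strands. The TATA box was present in 5 of 5 windows and in 11.2% of promoters, though in *Alas2* it lay 207 bases before the start. All 4 motifs together were present in 3 of the 5 windows and in 0.24% of promoters. Each of these counts of windows includes both alpha windows, which are the same sequence over 247 bases and not separate cases. A match is a description of letters and not of binding.

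All 5 members had higher mean levels in mutant than in WT mice, by 1.86- to 2.12-fold, but the genotypes overlapped for each of them and none passed a false discovery rate of 0.05 by edgeR's quasi-likelihood test. WT replicates 1, 2 and 3 had 162, 179 and 285 CPM of *Hba-a1*, and mutant replicates 1, 2 and 3 had 527, 235 and 504 CPM. *Hba-a2* was measured at 128, 146 and 251 CPM in WT and at 419.9, 198 and 365 CPM in mutant mice in the same order. For both alpha genes, WT replicate 3 lay above mutant replicate 2, and the other 4 mice were ordered by genotype. *Hbb-bs* was measured at 180, 261 and 570.5 CPM in WT and at 1030, 368 and 581 CPM in mutant mice. *Hbb-bt* was measured at 105, 157 and 359 CPM in WT and at 627, 232 and 297 CPM in mutant mice. For *Hbb-bt*, WT replicate 3 lay above both mutant replicates 2 and 3. *Alas2* was measured at 3.995, 6.68 and 13.2 CPM in WT and at 21.0, 9.33 and 20.4 CPM in mutant mice, and WT replicate 3 again lay above mutant replicate 2.

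**Figure D1:**
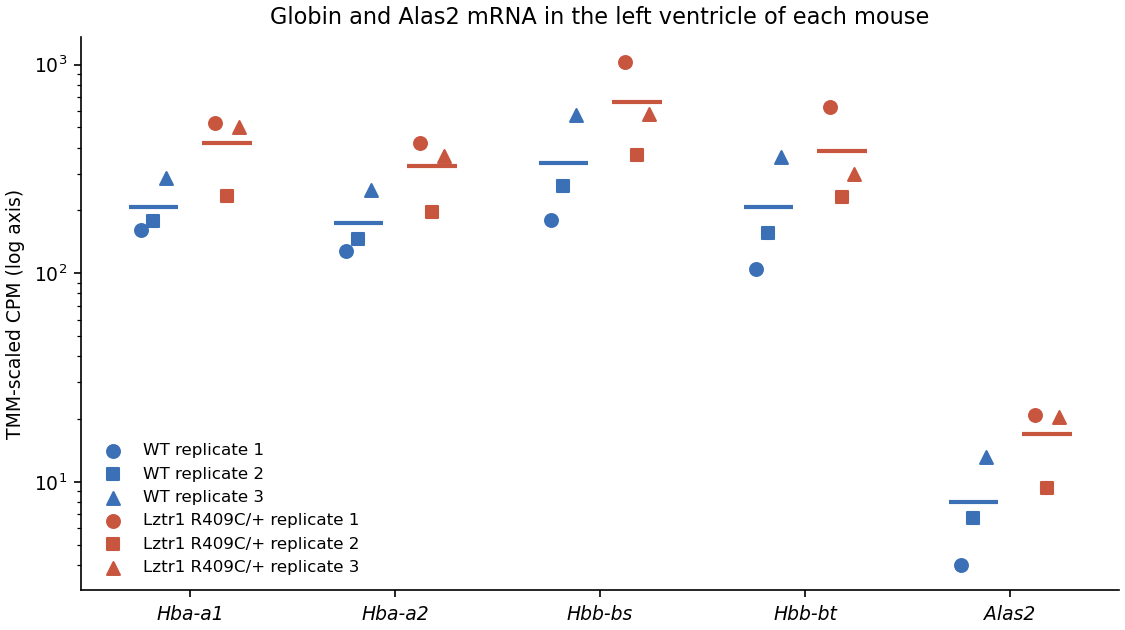
Level of the 5 member genes in each mouse, in TMM-scaled CPM on a log axis, with WT in blue, mutant in red, a marker shape for each replicate and a line at the mean of 3 mice. The triangle of WT replicate 3 lies above the square of mutant replicate 2 for every gene.

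The mean of *Hba-a1* was 209 ± 66.9 CPM (SD, n = 3) in WT and 422 ± 162 CPM (SD, n = 3) in mutant mice, 1.02 higher on the log2 scale (standard error, SE, 0.30, with an interval of 0.35 to 1.69 at 95%). Its edgeR adjusted p was 0.372, where this and every later edgeR adjusted p come from the quasi-likelihood test, adjusted over all genes tested by the Benjamini-Hochberg method. *Hba-a2* had a log2 fold change of 0.90 (SE 0.30, edgeR adjusted p = 0.455). The beta genes had wider errors, with 0.97 (SE 0.52, edgeR adjusted p = 0.663) for *Hbb-bs* and 0.90 (SE 0.56, edgeR adjusted p = 0.717) for *Hbb-bt*. *Alas2* had a log2 fold change of 1.08 (SE 0.45, edgeR adjusted p = 0.566), with means of 7.96 ± 4.74 CPM (SD, n = 3) and 16.9 ± 6.57 CPM (SD, n = 3). By the two-sided exact permutation test of 3 mice against 3, whose smallest p is 0.1, p was 0.3 for *Hbb-bt* and 0.2 for each of the other members.

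At the false discovery rate of 0.05, edgeR's quasi-likelihood test called 0 of the 5 members, where it called 0.0407% of the 17212 genes tested (0.0349% higher and 0.00581% lower). At an unadjusted p under 0.05, 3 of 5 members were higher (*Hba-a1*, *Hba-a2* and *Alas2*), where 5.77% of genes were higher at that level and 8.63% passed it in either direction. This count was 5 of 5 without WT replicate 3 (5.72% of genes higher) and by edgeR's exact test (6.26%), and 1 of 5 without WT replicate 2 (4.80%) or without mutant replicate 1 (4.82%). The members varied together across the mice, as described below, and are not independent of each other. DESeq2's Wald test called *Hba-a1* (adjusted p = 0.0352, the lowest of its alternatives, which reached up to 0.976) and none of the other 4, where it called 1.06% of the 14874 genes to which it gave an adjusted p. The exact test of edgeR called 0 of 5, where it called 0.813% of the genes tested. The genotypes did not overlap in the higher direction for 0 of 5 members, where 8.30% of all genes tested did so.

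The result moved with single mice. Without WT replicate 3, the library with the low mitochondrial share, the log2 fold changes were 1.31 for *Hba-a1*, 1.26 for *Hba-a2*, 1.58 for *Hbb-bs*, 1.55 for *Hbb-bt* and 1.66 for *Alas2*. The adjusted p-values from edgeR's quasi-likelihood test then lay between 0.309 for *Alas2* and 0.376 for *Hbb-bt*. For all 5 members WT replicate 3 was the only WT mouse above any mutant mouse, so leaving it out removed the overlap by construction. Of all genes, 13.8% were then higher without overlap. That share was not limited to genes with overlap from this mouse alone and is no measure for the 5. Without mutant replicate 1, the library with the high mitochondrial share, *Hbb-bs* dropped to 0.48 and *Hbb-bt* to 0.34, and *Hba-a1* was at 0.82. With both of these mice left out, which leaves 2 per genotype, the log2 fold changes lay between 1.02 for *Hbb-bt* and 1.48 for *Alas2*. With scaling by library size only, which moved the median of all genes from 0.01 to -0.14, they lay between 0.52 for *Hbb-bt* and 0.78 for *Alas2*.

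**Figure D2:**
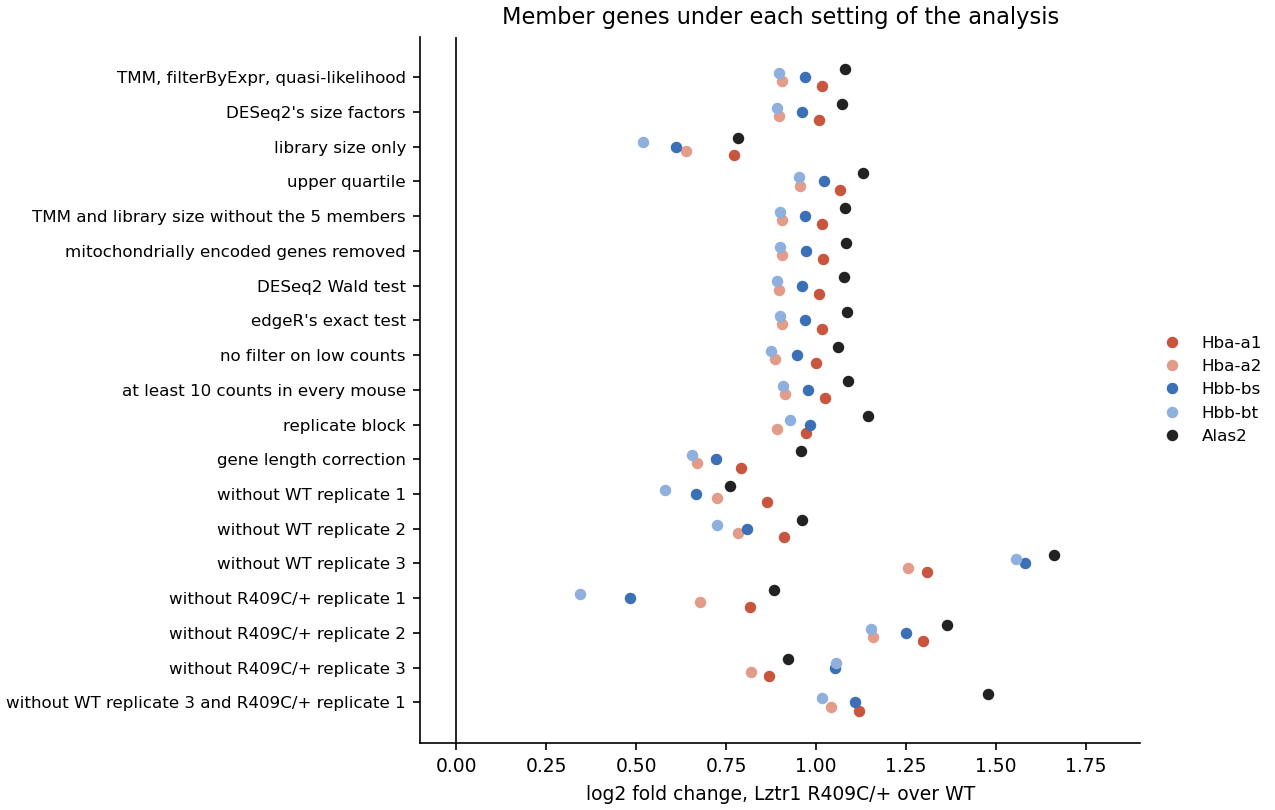
Log2 fold change of each member gene under each setting of the analysis, with 1 row per setting and 1 colour per gene. All points lie above 0, from 0.34 for *Hbb-bt* without mutant replicate 1 to 1.66 for *Alas2* without WT replicate 3.

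Added over the 4 globin genes, the level was 575, 742 and 1466 CPM in WT replicates 1, 2 and 3 and 2604, 1032 and 1748 CPM in mutant replicates 1, 2 and 3. Mean globin was 1795 ± 787 CPM in mutant mice against 927 ± 474 CPM in WT (SD, n = 3 in each), a ratio of 1.94, and WT replicate 3 exceeded mutant replicate 2. Within a genotype the highest mouse exceeded the lowest by 2.55-fold in WT and 2.52-fold in mutant mice. Without WT replicate 3, the WT mice differed by 1.29-fold and the ratio between the genotypes was 2.73. On the log2 scale, the ratio of 0.95 with all mice was 0.57 without mutant replicate 1 and 1.44 without WT replicate 3. As a share of all counts before scaling, the globins took 0.0529% to 0.204% in WT and 0.102% to 0.208% in mutant mice. Of the 10 cardiomyocyte genes, 3 had a higher and 7 a lower mean in mutant mice, and 0 passed the false discovery rate of 0.05 by edgeR's quasi-likelihood test. Their median log2 fold change was -0.23 and ran from -0.40 to -0.11 over 18 alternatives. Their sum was lowest in mutant replicate 1, at 33440 CPM. Their part in the globin levels was not tested. In these bulk libraries, more red cells in the tissue and more globin mRNA per red cell cannot be told apart.

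Each member varied more between mice of 1 genotype than most genes did. The SD of log2 CPM within a genotype was 0.56 for *Hba-a1*, 0.55 for *Hba-a2*, 0.80 for *Hbb-bs*, 0.83 for *Hbb-bt* and 0.77 for *Alas2*, against a median of 0.25 over 13215 genes with a mean of at least 1 CPM. These values lay between the 93.5 and 98.7 percentile of those genes.

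The share of alpha among globin counts differed more between mice of a genotype than between the genotype means. The alpha genes took 50.5%, 43.7% and 36.6% of globin counts in WT replicates 1, 2 and 3 and 36.4%, 41.9% and 49.8% in mutant replicates 1, 2 and 3. The exact 95% interval was widest in WT replicate 1, at 50.0% to 51.0%, and covers counting error only. The intervals of WT replicate 1 and mutant replicate 3 overlap, as do those of WT replicate 3 and mutant replicate 1. The alpha share averaged 43.6 ± 6.94% in WT and 42.7 ± 6.73% in mutant mice (SD, n = 3 in each), and the genotypes overlapped over nearly their whole range. Alpha globin summed to 384 ± 133 CPM (SD, n = 3) in WT and 749.9 ± 277 CPM (SD, n = 3) in mutant mice, and beta globin to 544 ± 340.3 CPM (SD, n = 3) and 1045 ± 548 CPM (SD, n = 3).

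**Figure D3:**
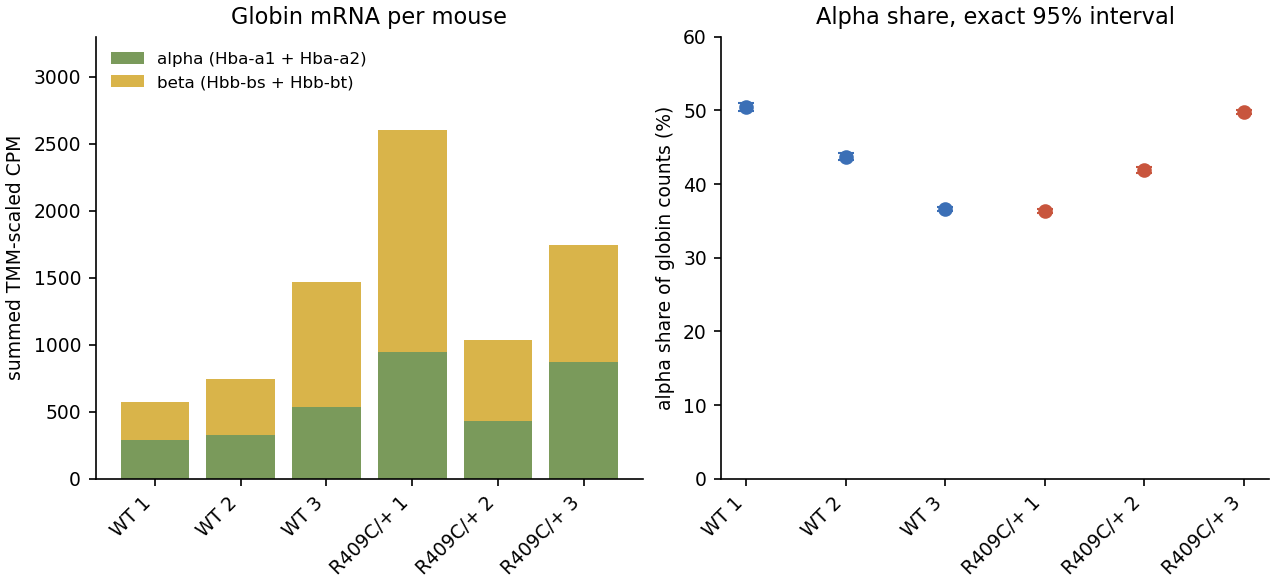
Left, summed alpha and beta globin level of each mouse in TMM-scaled CPM as stacked bars. Right, the share of globin counts from the alpha genes in percent with its exact 95% interval, which ran from 36.4% in mutant replicate 1 to 50.5% in WT replicate 1.

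The split within each pair varied over a narrower range than the alpha share. *Hba-a1* took 53.2% to 55.8% of alpha counts in WT and 54.4% to 58.0% in mutant mice, and *Hbb-bs* took 61.4% to 63.1% of beta counts in WT and 61.4% to 66.1% in mutant mice. Both upper ends belonged to mutant replicate 3, whose exact 95% intervals (57.6% to 58.4% and 65.8% to 66.5%) lay above those of the other 5 mice. *Alas2* stood at 6.95, 9.01 and 9.02 counts per 1000 globin counts in WT and at 8.07, 9.04 and 11.7 in mutant mice. This ratio spanned 1.68-fold over the 6 mice, where the summed globin level spanned 4.53-fold.

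Across the 6 mice, Pearson's r of log2 CPM was 0.992 between the alpha genes and 0.993 between the beta genes, and 0.872 to 0.962 between an alpha and a beta gene. *Alas2* had an r of 0.923 to 0.978 with the 4 globin genes. These are descriptions over 6 libraries, whose points share depth and scaling, and the paired genes share nearly all of their coding bases. Of 13211 other genes with a mean of at least 1 CPM, the 5 whose log2 CPM followed the mean of the globin genes most closely were *Gm13680* (a processed pseudogene, r = 0.996), *Nelfe* (r = 0.991), *Tuft1* (r = 0.990), *Gm26782* (a lncRNA, r = 0.990) and *Ndufb6* (r = 0.985). The 3 at the other end were *Limch1* (r = -0.986), *Slc38a4* (r = -0.983) and *Caprin1* (r = -0.982). *Alas2*, the only member outside the globins, ranked 13 in this order.

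Per kilobase of canonical transcript, the mean WT level was 507 ± 311 CPM per kb for *Hbb-bs*, 294 ± 190.4 for *Hbb-bt*, 283 ± 90.7 for *Hba-a1* and 271 ± 103 for *Hba-a2* (SD, n = 3 in each), and neighbours in this order differed by less than their spread. *Alas2* was far lower, at 3.91 ± 2.33 CPM per kb (SD, n = 3). In mutant mice the order was *Hbb-bs* (994 ± 509 CPM per kb), *Hba-a1* (572 ± 220.0), *Hbb-bt* (547 ± 301), *Hba-a2* (506 ± 179) and *Alas2* (8.30 ± 3.23), again with overlap between neighbours among the globins (SD, n = 3 in each). Myoglobin, encoded by *Mb*, stores oxygen in the muscle cell itself and was at 2735 ± 349.5 CPM per kb in WT and 3204 ± 879 CPM per kb in mutant mice (SD, n = 3 in each), above every hemoglobin gene. *Mb* had a log2 fold change of 0.23 (SE 0.24, edgeR adjusted p = 0.834). *Cygb*, which encodes cytoglobin, had 0.56 (SE 0.23, unadjusted p = 0.0297, edgeR adjusted p = 0.532), with overlap between the genotypes. *Ngb*, which encodes neuroglobin, and the 5 other globin genes searched in the clusters (*Hba-x*, *Hbb-y*, *Hbb-bh0*, *Hbb-bh1* and *Hbb-bh2*, most of them active in the embryo) were listed at 0 counts in all 6 mice, below the floor of 3 counts per library.

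The other 8 enzyme genes of heme synthesis had log2 fold changes from -0.48 to 0.22, and their r with the mean log2 level of the globins over the 6 mice included -0.75 for *Urod*, -0.43 for *Alas1* and 0.30 for *Ppox*. The pathway runs from glycine and succinyl-CoA through 8 steps, and every cell with mitochondria uses it, with *Alas1* for the first step outside the red cell lineage. All 9 enzyme genes were tested. By edgeR's quasi-likelihood test, 0 were called in either direction at the false discovery rate of 0.05. *Alas2* was higher, and *Alad* and *Cpox* were lower, at an unadjusted p under 0.05, a level that 5.77% and 2.86% of all genes reached in these directions. The median log2 fold change of the list was -0.12, against 0.01 for all genes tested.

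*Alas1* was at 153, 185 and 184 CPM in WT and at 112, 198 and 187 CPM in mutant mice, with a log2 fold change of -0.07 (SE 0.21). Per kilobase, *Alas1* was at 51.0 ± 5.32 CPM per kb in WT and 48.6 ± 13.8 CPM per kb in mutant mice (SD, n = 3 in each), above *Alas2* in both genotypes. *Alad*, which encodes aminolevulinate dehydratase, was at 29.4, 28.8 and 49.7 CPM in WT and at 23.7, 24.5 and 29.1 CPM in mutant mice, with a log2 fold change of -0.48 (SE 0.21, edgeR adjusted p = 0.568). The high WT value belonged to replicate 3, and the genotypes overlapped. *Cpox*, which encodes coproporphyrinogen oxidase, was at 45.9, 50.6 and 62.9 CPM in WT and at 32.4, 43.4 and 43.6 CPM in mutant mice, the only enzyme gene of the 9 whose genotypes did not overlap, where 7.23% of all genes were lower without overlap. Its log2 fold change was -0.42 (SE 0.18, edgeR adjusted p = 0.554). Of the later enzymes, *Uros* had a log2 fold change of -0.20, *Urod* -0.12, *Ppox* 0.22 and *Fech*, which inserts the iron, -0.05. Of 14 genes that supply the pathway with glycine, iron or transport across the mitochondrial membrane, 7 had higher and 7 lower means, and 0 passed the false discovery rate of 0.05 by edgeR's quasi-likelihood test (2 lower at an unadjusted p under 0.05, where 2.86% of all genes were), with a median of 0.02 (-0.22 with library size only). *Clpx*, a chaperone that acts on ALAS enzymes, was at 110 ± 13.7 CPM in WT and 79.8 ± 9.41 CPM in mutant mice (SD, n = 3 in each), without overlap (-0.46 on the log2 scale, SE 0.16, edgeR adjusted p = 0.470). *Abcb6*, a porphyrin transporter, had -0.38 (SE 0.17), also without overlap. These were the only 2 of the 14 genes without overlap, where 7.23% of all genes were lower without overlap.

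**Figure D4:**
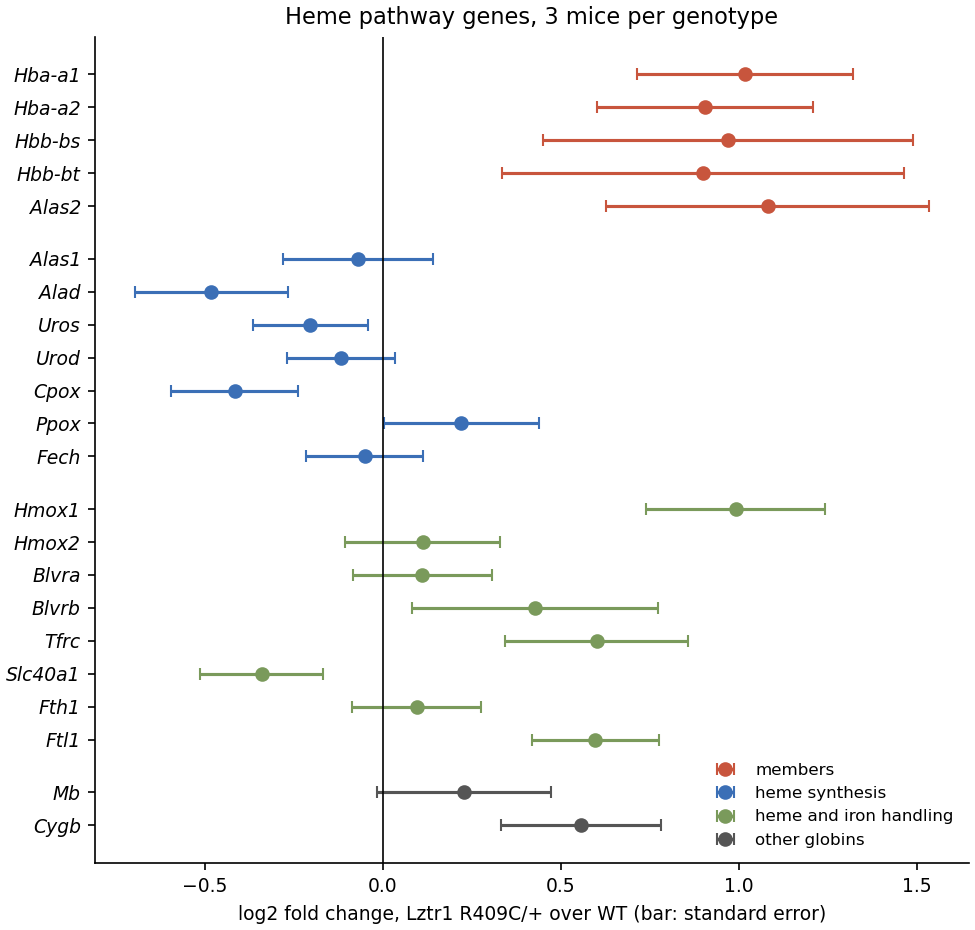
Log2 fold change of *Lztr1* R409C/+ over WT mice with its SE for the 5 members, 7 other enzymes of heme synthesis, 8 of the 24 genes of heme and iron handling (chosen by role after their values were seen) and 2 tissue globins. The members lie between 0.90 and 1.08, and the 7 other enzymes shown between -0.48 and 0.22.

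On the side of heme breakdown and iron, 24 genes were tested and 0 passed the false discovery rate of 0.05 by edgeR's quasi-likelihood test. At an unadjusted p under 0.05, 3 were higher and 1 was lower (5.77% and 2.86% of all genes). Without overlap of the genotypes, 3 of the 24 were higher and 2 lower, where 8.30% and 7.23% of all genes were. The median log2 fold change was 0.11 (-0.08 with library size only). *Hmox1* encodes the inducible heme oxygenase, which opens the heme ring and is known to respond to heme. It was at 2.83, 3.22 and 2.29 CPM in WT and at 4.71, 4.85 and 6.97 CPM in mutant mice, without overlap. Its log2 fold change was 0.99 (SE 0.25, unadjusted p = 0.00198, edgeR adjusted p = 0.268). *Ftl1*, the light chain of the iron store ferritin, was at 138 ± 1.93 CPM in WT and 209 ± 45.9 CPM in mutant mice (SD, n = 3 in each), also without overlap (0.60 on the log2 scale, SE 0.18, edgeR adjusted p = 0.352), whereas *Fth1*, the heavy chain, had 0.09 (SE 0.18). *Tfrc*, the transferrin receptor, had 0.60 (SE 0.26) with overlap. *Hpx*, which encodes the heme scavenger hemopexin, was the gene that was lower at an unadjusted p under 0.05. Its counts were 39, 17 and 21 for the WT and 0, 0 and 6 for the mutant mice, without overlap (unadjusted p = 0.00907, edgeR adjusted p = 0.411). In order of globin level the mice did not line up by *Hmox1*, since WT replicate 3 had the highest globin and the lowest *Hmox1* among WT mice.

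Several defining genes of the red cell lineage were at or near 0 counts. Of 21 erythroid genes, 20 were matched, 9 passed the filter on low counts and 0 of these passed the false discovery rate of 0.05 by edgeR's quasi-likelihood test (0 at an unadjusted p under 0.05). The list summed to 357 to 395 CPM in WT and 328 to 442 CPM in mutant mice. Most of this came from *Ank1* and *Sptb*, membrane skeleton genes that muscle also expresses. *Gata1*, *Rhag*, *Hemgn* and *Cldn13* were listed at 0 counts in all 6 mice, and *Klf1* had at most 7. *Slc4a1*, the anion exchanger of the red cell membrane, was at 0.363, 0.0621 and 0.243 CPM in WT and 0.505, 0.755 and 0.455 CPM in mutant mice, without overlap (1.35 on the log2 scale, SE 0.66, edgeR adjusted p = 0.600). It was the only 1 of the 9 tested genes without overlap, where 8.30% of all genes were higher without overlap. The median log2 fold change of the 9 tested genes was -0.07, and its sign differed between settings. It was 1.06 without a filter on low counts and 0.04 with the gene length correction. It was 0.32, 0.34 and 0.26 without WT replicate 1, 2 or 3, and 0.04 and 0.25 without mutant replicate 1 or 2. The cause of these turns was not tested. The part of the erythroid genes in the globin levels was not tested either.

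Summed markers of B cells, neutrophils and T cells had higher means in mutant than in WT mice. The B cell list had 9 of 9 tested genes with a higher mean, 5 of them without overlap, against 8.30% of all genes, and 0 passed the false discovery rate of 0.05 by edgeR's quasi-likelihood test (2 at an unadjusted p under 0.05, where 5.77% of all genes were higher). *Ighm*, the heavy chain of IgM, was at 4.90, 5.89 and 4.69 CPM in WT and at 14.3, 7.32 and 8.80 CPM in mutant mice (0.97 on the log2 scale, SE 0.25, edgeR adjusted p = 0.274). Summed over the list, B cell genes were at 6.18 to 9.83 CPM in WT and 11.7 to 20.3 CPM in mutant mice. Neutrophil genes summed to 1.35 to 2.62 CPM in WT and 3.47 to 4.37 CPM in mutant mice, with *Ly6g*, *Ngp*, *Camp*, *Elane* and *Mpo* at 0 counts in all mice. Of the 14 neutrophil genes, 4 were tested, 3 with a higher and 1 with a lower mean. By edgeR's quasi-likelihood test, 0 of these passed the false discovery rate of 0.05, and 2 were higher at an unadjusted p under 0.05. T cell genes summed to 0.953 to 1.45 CPM in WT and 2.20 to 3.48 CPM in mutant mice. Of the 10 T cell genes, 4 were tested, all with a higher mean, and 0 passed either level by the same test. These sums rest on 128 to 291 neutrophil and 63 to 252 T cell counts per mouse. For these 3 lists the genotypes did not overlap, unlike for the globins. Platelet genes summed to 7.39, 11.4 and 15.1 CPM in WT and to 18.7, 15.1 and 13.7 CPM in mutant mice, with overlap, and most of this was *Pf4*. The list of circulating monocytes overlapped too, and its *Ccr2*, a chemokine receptor, was at 1.09, 1.85 and 2.10 CPM in WT and 8.97, 3.53 and 4.07 CPM in mutant mice (1.71 on the log2 scale, SE 0.38, edgeR adjusted p = 0.215).

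The B cell and neutrophil sums did not follow the globins mouse by mouse, and the platelet sums followed their order except that mutant replicates 2 and 3 changed places. WT replicate 3, with the most globin of the WT mice, had the lowest neutrophil and B cell sums of all 6 mice and the highest platelet sum in WT. Mutant replicate 1, with the most globin of all, also had the highest platelet, neutrophil and B cell sums, but the lowest T cell sum of the mutant mice (2.20 CPM against 2.49 and 3.48 CPM). The part of these cells in the globin levels was not tested.

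**Figure D5:**
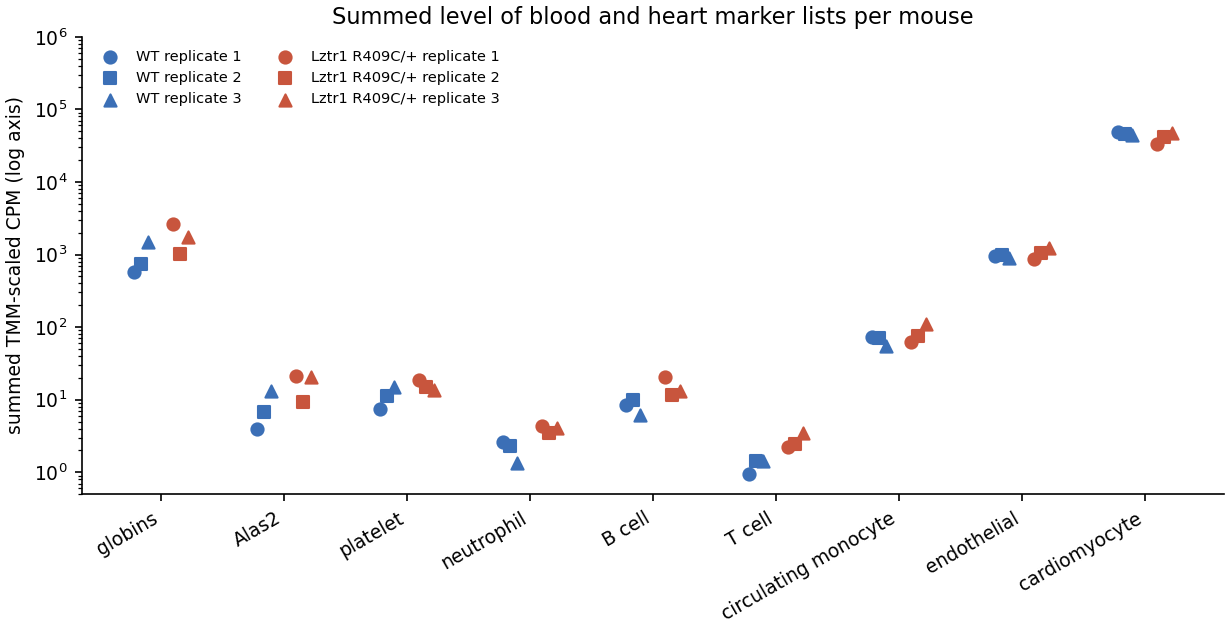
Summed TMM-scaled CPM of each marker list in each mouse on a log axis, with WT in blue, mutant in red and a marker shape for each replicate. The globins span 575 to 2604 CPM with overlap between the genotypes, and the neutrophil, B cell and T cell sums lie higher in every mutant mouse.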

How the data were processed

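The authors deposited whole-number counts per gene without normalization, for 1 library per mouse. Reads were trimmed with Trim Galore, aligned to GRCm39 with HISAT2 and assigned with StringTie after rRNA was excluded. How StringTie gave counts, the annotation release and tool versions are not given in the sources used here, and a listed 0 can reflect that step. The authors' table of their edgeR comparison (fold changes, p-values) was used for gene names only.

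Members and lists were chosen with earlier results of these data known. Names came from that table for 12629 genes and otherwise from GENCODE M39 by identifier, which held 56236 of 56923. Counts were filtered with filterByExpr (17212 genes left), scaled with TMM and tested with the robust quasi-likelihood test of edgeR 4.0.16 in R 4.3.3, with Benjamini-Hochberg adjustment over all genes at 0.05, two-sided. Single genes were also compared with the exact permutation test. Shares have exact (Clopper-Pearson) intervals, for counting error only. Lists have counts and medians, without a set test. The labels number the replicates and say no more of them, so p-values measure the spread between these mice.

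Named genes were the members, the heme synthesis and other globin genes, from each list the genes of smallest p (for cell type lists, also of highest level) and the genes most and least like the globins. Some items are not reported here, not all named genes are given values, and others in the text were named after their values were seen. Alternatives were other scalings, DESeq2 1.42.0, edgeR's exact test, other filters, a replicate block, and omission of mice, and a gene length correction was added after seeing the data. The steps were tested on simulated data.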

Additional observations from a re-analysis of the deposited data

How the results depend on the processing

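The log2 fold change of each member stayed above 0 in all 18 alternatives. It ranged from 0.77 to 1.31 for *Hba-a1*, 0.64 to 1.26 for *Hba-a2*, 0.48 to 1.58 for *Hbb-bs*, 0.34 to 1.55 for *Hbb-bt* and 0.76 to 1.66 for *Alas2*. With 1 mouse left out at a time, it ran from 0.82 to 1.31, 0.68 to 1.26, 0.48 to 1.58, 0.34 to 1.55 and 0.76 to 1.66 in the same order. *Hba-a1* passed the threshold only by DESeq2's Wald test, with a log2 fold change of 1.01, and no other member passed in any alternative. The gene length correction lowered *Hba-a1* to 0.79 and *Alas2* to 0.96. On the log2 scale, the ratio of summed globin CPM was 0.95 and ran from 0.57 to 1.44 over 12 alternatives, both ends from leaving out 1 mouse.

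The number of genes called at a false discovery rate of 0.05, 7 with TMM and the quasi-likelihood test, was 21 with library size only, 158 with DESeq2's Wald test, 140 with edgeR's exact test, 20 without a filter on low counts, 3 with the gene length correction, 1 without WT replicate 3 and mutant replicate 1, and 2 to 4 with each mouse left out in turn. At a false discovery rate of 0.1 it was 16. The cause was not tested. With a replicate block it was 1, and the block changed no call of a member. Deviations of same-numbered mice from their genotype means correlated at -0.02, 0.08 and -0.09 over genes, and no pair exceeded 0.1. Such correlations cannot show whether same-numbered mice were related or handled together, which the labels do not say. The median of the heme synthesis list stayed below 0 in all 18 alternatives, from -0.26 to -0.08, and that of the erythroid list ran from -0.18 to 1.06. The globins had 6939 counts or more per gene and mouse, whereas *Klf1* had at most 7, too few for a comparison.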

Other observations

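Of 12 genes abundant in reticulocytes but also active in other tissues, all were tested, 9 had a higher and 3 a lower mean in mutant mice, and 0 passed a false discovery rate of 0.05 by edgeR's quasi-likelihood test (1 higher at an unadjusted p under 0.05, where 5.77% of all genes were, and 2 higher without overlap, where 8.30% of all genes were). The gene at that p was *Gpx1*, which encodes a selenium-dependent glutathione peroxidase. It was at 35.8, 40.3 and 41.6 CPM in WT and at 77.7, 67.6 and 62.5 CPM in mutant mice, without overlap (0.82 on the log2 scale, SE 0.15, edgeR adjusted p = 0.142). *Bpgm*, which makes the hemoglobin ligand 2,3-bisphosphoglycerate, was at 11.6 ± 1.62 CPM in WT and 14.3 ± 1.53 CPM in mutant mice (SD, n = 3 in each), also without overlap (log2 fold change 0.31, SE 0.18). Unlike for the globins, WT replicate 3 stayed below every mutant mouse for both genes.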
